A study of Mus musculus with 8 samples.

Results

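The extracellular matrix of the submandibular gland was examined through 41 genes that encode collagens, laminins, other matrix proteins, enzymes of collagen maturation and markers of fibroblasts. They were taken by name from the 54838 genes of each count table, all 41 were found, and all 41 passed the expression filter. RNA sequencing had been made from glands of male mice, 4 libraries from C57BL/6J wild-type animals (WT) and 4 from the Dp16 line, B6.129S7-Dp(16Lipi-Zbtb21)1Yey/J. Dp16 mice carry a duplication of a part of chromosome 16 that gives its genes 3 copies in place of 2 and are used as a model of Down syndrome. The duplication is present in every cell of the animal, and the labels give C57BL/6J as the strain of both groups, with no age and no statement on whether a library is 1 animal. If replicates within a group were not separate animals, the p-values measure only the spread between these libraries. Connective and fat tissue around the gland had been removed before RNA extraction. None of the 41 genes lies on chromosome 16 (0 of 41), so the duplication changes the copy number of none of them.

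A gland is held together by 2 kinds of matrix. Fibroblasts between the lobules and around the ducts lay down an interstitial matrix of fibrillar collagens, to which proteoglycans, fibulins and other collagens attach. Basement membranes, thin sheets built on laminins and type IV collagen, lie under the acini and ducts and around vessels, muscle and nerve. Collagen chains assemble as trimers, are trimmed outside the cell and are then linked to each other by lysyl oxidases. Fibrillar collagen is known to build up in fibrosis, in salivary glands as in other organs.

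Reads in genes ranged from 90790542 to 115729892 per library. Reads overlapping no counted feature took 13.8% to 15.9% of the reads in WT and 18.4% to 20.8% in Dp16. Markers of the labelled tissue were abundant: the 8 acinar markers, led by Mucl2, summed to between 225503 and 364279 counts per 1000000 (CPM) and the 8 granular duct markers to between 55657 and 161239. One library stood apart: Dp16 replicate 3 had 27 protein-coding genes at 4 or more times the highest of the other 7 libraries, against 0 to 4 in each other library. Levels are given as CPM on library sizes scaled by the trimmed mean of M values (TMM), and comparisons between genes as CPM per kilobase (kb) of merged exons.

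No gene of the 41 passed the test between Dp16 and WT. By edgeR's quasi-likelihood test with Benjamini-Hochberg adjustment over 19358 genes, 0 of 41 were called at an adjusted p below 0.05, where 0.625% of all genes tested were (0.47% higher and 0.155% lower in Dp16). The smallest adjusted p was 0.0733, for Col1a1. At an unadjusted p below 0.05 edgeR gave 11 of 41, of which 9 were lower and 2 higher in Dp16, where 24.6% of all genes passed (11.9% lower and 12.7% higher). DESeq2, which left Lox without an adjusted p, called 4 of the other 40 members, Col1a1, Col6a3 and Mfap4 lower and Thy1 higher. Over all genes it called 10.2%, of which the lower ones made 4.33% and the higher ones 5.82% of all genes. Limma-voom called 1 of 41, Col1a1 lower, where it called 2.05% of all genes (0.77% lower). The 2 groups did not overlap in 3 of 41 members (Col1a1, Mfap4 and Thy1), a smaller share than the 14.1% of all genes tested. The median log2 fold change was -0.22 over the 41 members and 0.01 over all genes tested, and 30 of 41 members were negative, against 48.9% of all genes.

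Fibrillar collagens, the rods of the interstitial matrix, had a lower mean in Dp16 for 5 of 5 genes, with a median log2 fold change of -0.41. By edgeR 0 of 5 were called and 2 had an unadjusted p below 0.05. Each of DESeq2 and limma-voom called 1. Col1a1, the α1 chain of type I collagen (ENSMUSG00000001506, chr11:94936224-94953042 on GRCm38), had 55.3, 66.5, 67.5 and 58.9 CPM in WT replicates 1 to 4 and 31.1, 32.5, 36.6 and 53.1 in Dp16 replicates 1 to 4. All 4 Dp16 libraries lay below the lowest WT library, with Dp16 replicate 4 the nearest to it. The mean went from 62.03 ± 5.93 to 38.3 ± 10.1 CPM (SD, n = 4 each), a log2 fold change of -0.69 (SE 0.164, 95% confidence interval -1.06 to -0.33, edgeR adjusted p = 0.0733). Without Dp16 replicate 4 edgeR called Col1a1 lower (-0.90, edgeR adjusted p = 0.026), where 0.071% of all genes were called in that fit, and without any other single library it did not, at adjusted p-values by edgeR of 0.0745 to 0.182.

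Col1a2, which supplies the other chain of the type I trimer, had 108, 157, 147 and 134 CPM in the WT libraries and 86.1, 93.9, 101.6 and 129.9 in the Dp16 libraries. Its groups overlapped through Dp16 replicate 4 and WT replicate 1 (-0.41, SE 0.152, edgeR adjusted p = 0.152). Col3a1, the single chain of type III collagen that is abundant in soft organs, had 118, 194, 172 and 222 CPM in WT and 70.1, 74.1, 119 and 189 in Dp16. Dp16 replicates 1 and 2 lay below all WT libraries, and replicates 3 and 4 lay within the WT range (-0.64, SE 0.32, edgeR adjusted p = 0.245). Its log2 fold change was -1.02 without Dp16 replicate 4 (edgeR adjusted p = 0.0888). Col5a1 and Col5a2 encode type V collagen, which sits inside type I fibrils and sets their diameter. They had -0.36 and -0.35, at adjusted p-values by edgeR of 0.265 and 0.385, and both overlapped.

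**Figure D1:**
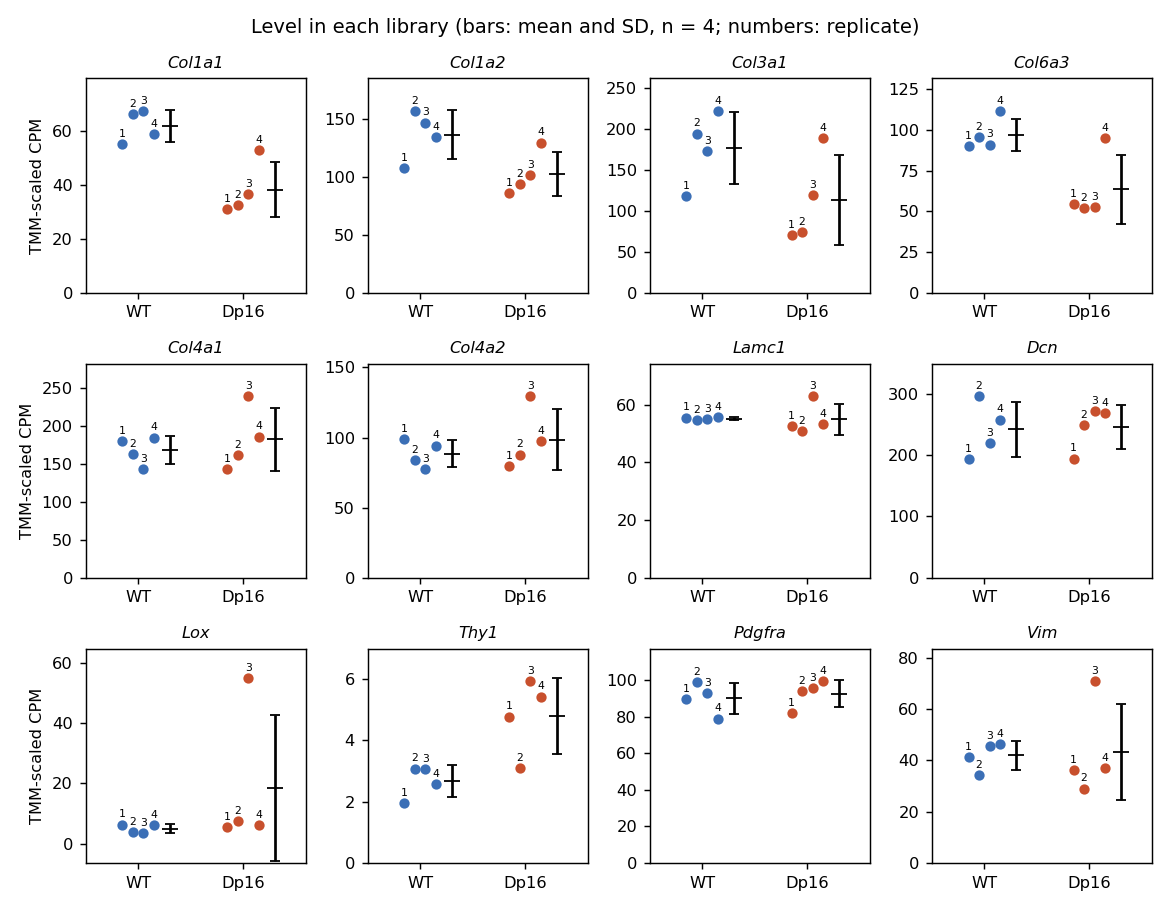
TMM-scaled CPM of 12 genes in each library, with WT in blue, Dp16 in red, replicate numbers beside the points and bars for the mean and SD (n = 4). The 4 Dp16 libraries lie below the 4 WT libraries for Col1a1, Dp16 replicate 4 lies near or within the WT range for the interstitial collagens, and Lox is high in Dp16 replicate 3 alone, at 55.0 CPM.

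The other interstitial collagens were split, with 2 of 4 negative. By edgeR 0 of 4 were called and 2 had an unadjusted p below 0.05, DESeq2 called 1 and limma-voom 0. Col6a3, a chain of the beaded type VI collagen that surrounds cells, had 90.03, 95.4, 91.1 and 112 CPM in WT and 54.5, 51.9, 52.7 and 95.3 in Dp16. In Dp16, 3 libraries were close together and below WT, while Dp16 replicate 4 lay inside the WT range (-0.61, SE 0.195, edgeR adjusted p = 0.118). Without Dp16 replicate 4 it was called lower (-0.88, edgeR adjusted p = 0.026). Its partner chains Col6a1 and Col6a2, which are not among the 41, had -0.41 and -0.54, at adjusted p-values by edgeR of 0.153 and 0.131. Both are orthologs of human chromosome 21 genes with 2 copies in these mice, as is Col18a1, a basement membrane collagen (0.09, SE 0.11, edgeR adjusted p = 0.634). Col14a1, which binds to the surface of fibrils, had 12.5 to 21.1 CPM in WT and 7.05 to 16.8 in Dp16 (-0.61, edgeR adjusted p = 0.184). Col12a1 and Col16a1, also fibril-associated, had 0.10 and 0.07, at adjusted p-values by edgeR of 0.885 and 0.889. The sign of both turned in some settings: Col12a1 had -0.47 without Dp16 replicate 3 and Col16a1 had -0.14 without Dp16 replicate 2.

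Basement membrane genes had a median log2 fold change of -0.01, with 4 of 7 negative, 0 of 7 called by edgeR, DESeq2 or limma-voom, and 0 of 7 at an unadjusted p below 0.05 by edgeR. Col4a1, the main chain of type IV collagen (ENSMUSG00000031502), had 180, 163, 143 and 184 CPM in WT and 143, 162, 239 and 186 in Dp16. Col4a2, its partner (ENSMUSG00000031503), had 98.7, 83.7, 77.3 and 94.2 CPM in WT and 79.5, 87.8, 129 and 97.5 in Dp16. Both had their highest value in Dp16 replicate 3, and the other 7 libraries overlapped. Their log2 fold changes were 0.12 (95% confidence interval -0.24 to 0.48) and 0.16 (-0.18 to 0.49), at adjusted p-values by edgeR of 0.661 and 0.543. Without Dp16 replicate 3 they were -0.04 and -0.003.

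The genes of this pair start head to head on chromosome 8 and overlap by 22 bases at their first exons. The windows around both starts, and that of Col3a1 as a fibrillar gene, are shown because the 2 type IV genes kept a near-constant ratio across the libraries. Each window holds 250 bases before the start and 50 after it, on the gene's own strand, from RefSeq on GRCm38.p6. Capitals mark the CCAAT string of the CCAAT box, the GGGCGG string of the GC box and the TATAAA string of the TATA box, on either strand. No marked strings overlap each other in these windows.
Col4a1: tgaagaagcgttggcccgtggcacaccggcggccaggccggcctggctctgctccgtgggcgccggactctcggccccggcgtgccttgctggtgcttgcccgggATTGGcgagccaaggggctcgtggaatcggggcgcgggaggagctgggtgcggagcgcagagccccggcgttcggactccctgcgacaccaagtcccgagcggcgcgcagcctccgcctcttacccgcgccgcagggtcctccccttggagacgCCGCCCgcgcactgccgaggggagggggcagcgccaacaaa
Col4a2: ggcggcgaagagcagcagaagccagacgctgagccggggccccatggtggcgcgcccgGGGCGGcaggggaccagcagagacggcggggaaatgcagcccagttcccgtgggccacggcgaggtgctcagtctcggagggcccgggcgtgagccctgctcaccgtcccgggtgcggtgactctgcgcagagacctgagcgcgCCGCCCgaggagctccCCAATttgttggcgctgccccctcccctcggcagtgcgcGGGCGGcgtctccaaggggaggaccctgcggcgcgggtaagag
Col3a1: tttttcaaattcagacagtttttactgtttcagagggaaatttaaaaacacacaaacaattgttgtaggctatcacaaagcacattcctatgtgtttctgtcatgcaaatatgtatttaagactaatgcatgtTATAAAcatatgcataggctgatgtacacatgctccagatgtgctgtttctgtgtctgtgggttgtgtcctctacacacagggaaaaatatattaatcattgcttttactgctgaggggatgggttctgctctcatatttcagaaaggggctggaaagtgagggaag

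The Col4a1 window is chr8:11312777-11313076 on the minus strand and the Col4a2 window chr8:11312555-11312854 on the plus strand, and they share 78 bases. The Col3a1 window is chr1:45311288-45311587 on the plus strand. The type IV windows are rich in G and C (74.0% and 73.7%) with 37 and 33 CG pairs, and that of Col3a1 has 37.7% and 0. Col3a1 does not stand for the fibrillar genes in this: the Col5a1 window has 75.0% and 34, and that of Col1a2 61.0% and 13. CCAAT occurred once in each type IV window, GGGCGG once in that of Col4a1 and 3 times in that of Col4a2, and TATAAA once in that of Col3a1. Over all 32851 windows of the table, 37.4% held CCAAT, 35.7% GGGCGG and 13.6% TATAAA. Of the 41 genes 25 had a window, with 28 windows among them, and 11, 13 and 5 of the 25 held these strings in at least 1 window. These counts are per gene and the shares above per window, so they are not in the same unit. A match of letters is a description and not a binding site.

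Laminins, the cross-shaped trimers that start a basement membrane, showed small differences. Lamc1, the γ1 chain shared by most laminins, had 55.5, 54.7, 54.9 and 55.7 CPM in WT and 52.6, 50.7, 62.9 and 53.3 in Dp16, the tightest WT group of the 41 genes. Its log2 fold change was -0.01 with a confidence interval of -0.18 to 0.17. Lama2, a chain of muscle and nerve basement membranes, had -0.04 (-0.28 to 0.21), Lama4, a chain of vessel walls, had 0.08 (-0.23 to 0.38), and Lamb1 had -0.15 (-0.47 to 0.17). These intervals bound a change of the mean and do not show that the groups are alike. Col15a1, a collagen that ties basement membranes to interstitial fibrils, differed from the rest of its group in its values. It had 39.3, 34.9, 55.7 and 44.98 CPM in WT and 28.3, 30.7, 10.4 and 40.4 in Dp16 (-0.67, SE 0.34, edgeR adjusted p = 0.251). Dp16 replicate 3 was the lowest by far, and the log2 fold change was -0.40 without it.

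**Figure D2:**
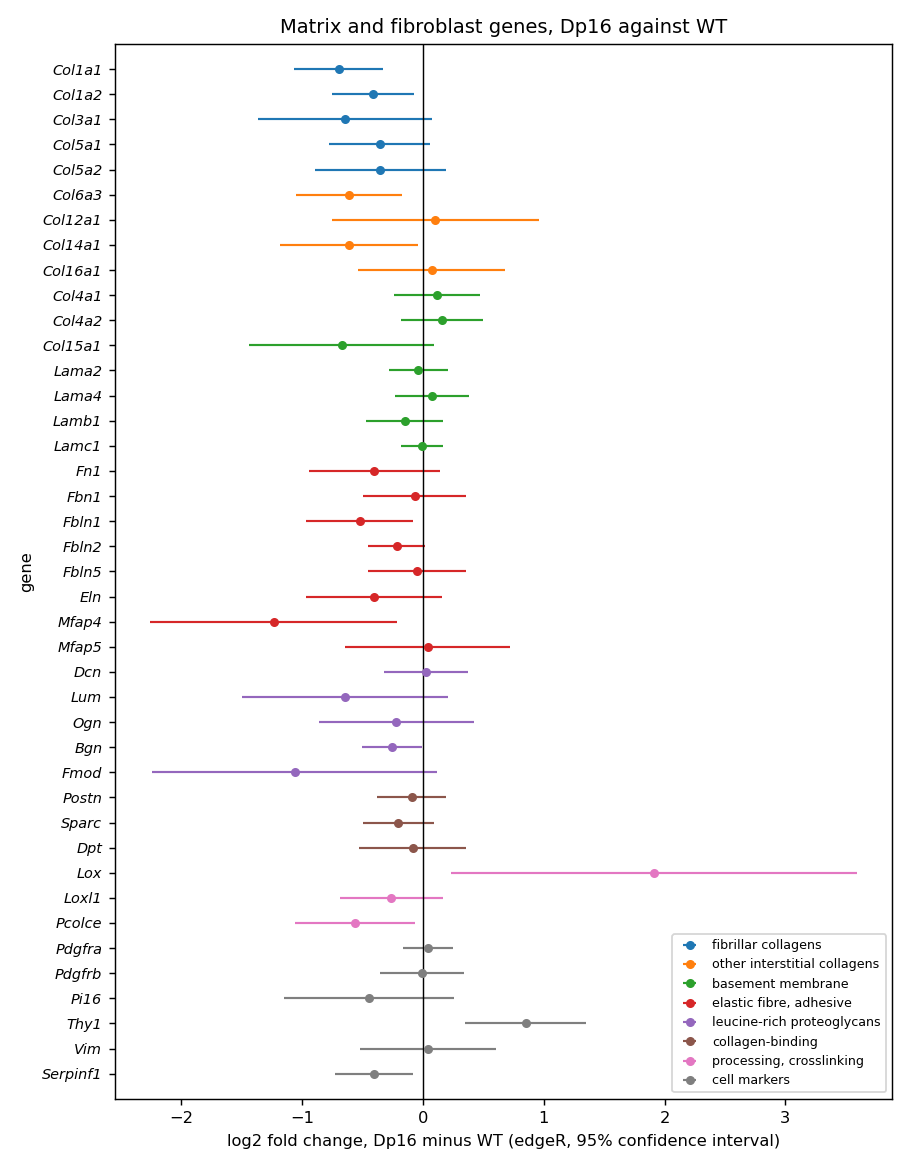
Log2 fold change (Dp16 minus WT) of each of the 41 genes with its 95% confidence interval from edgeR, coloured by role. The 5 fibrillar collagens all lie left of 0, and the type IV collagens and laminins lie near 0. The interval of Lox is the widest, from 0.23 to 3.59.

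Ratios of 2 genes within a library do not depend on how libraries are scaled, and 6 were compared. Col4a1 to Col4a2 was the steadiest: its log2 count ratio lay between 0.84 and 0.97 in all 8 libraries, with means of 0.92 ± 0.05 in WT and 0.88 ± 0.04 in Dp16 (SD, n = 4; exact permutation p = 0.257, adjusted over 6 ratios 0.386). Per kb of exon this was 1.68 Col4a1 reads to 1 of Col4a2 in WT and 1.64 in Dp16, and the trimer holds both chains. For Col1a1 to Col1a2, also chains of a shared trimer, the ratio per kb was 0.86 in WT and 0.70 in Dp16. The log2 count ratio of Col1a1 to Col1a2 was -0.97, -1.24, -1.12 and -1.19 in WT and -1.47, -1.53, -1.47 and -1.29 in Dp16. The groups did not overlap, and the difference was -0.31, a fold of 1.24. Col1a1 to Col4a1, a fibrillar to a basement membrane collagen, had means of -1.43 ± 0.294 in WT and -2.26 ± 0.369 in Dp16, a difference of -0.82 or 1.77-fold. Col1a1 to Pdgfra, a receptor that marks fibroblasts, had -0.54 ± 0.123 and -1.30 ± 0.274, a difference of -0.77 or 1.70-fold. In each of these 3 ratios all 4 Dp16 libraries lay below all 4 WT libraries, with an exact two-sided permutation p of 0.0286, the smallest that 4 against 4 allows. Adjusted over the 6 ratios it was 0.0571, the lowest that 3 ratios at this p can reach, so none passed 0.05. The 3 also share the values of Col1a1. Col3a1 to Col1a1 had a difference of -0.004 (exact permutation p = 0.971) and Lamb1 to Lamc1 of -0.16 (exact permutation p = 0.6), and both overlapped.

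**Figure D3:**
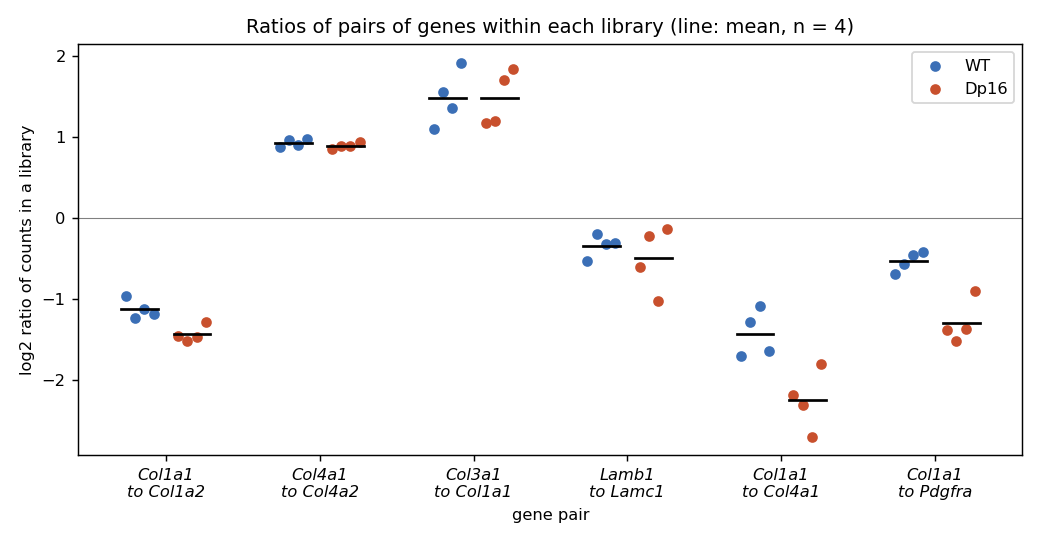
Log2 ratio of the read counts of 2 genes within each library for 6 pairs, with WT in blue, Dp16 in red and a line at the mean of 4. The Col4a1 to Col4a2 points fall between 0.84 and 0.97 in both groups, and the 3 ratios of Col1a1 to Col1a2, Col4a1 and Pdgfra do not overlap between groups.

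Elastic fibre and adhesive glycoprotein genes had 7 of 8 negative values and a median of -0.31. By edgeR 0 of 8 were called and 2 had an unadjusted p below 0.05, DESeq2 called 1 and limma-voom 0. Mfap4, a microfibril-associated protein, was among the lowest of the 41 genes, with 0.997, 1.24, 1.101 and 1.28 CPM in WT and 0.64, 0.217, 0.204 and 0.909 in Dp16. The groups did not overlap, but the gene rested on as few as 22 reads in a library (-1.23, SE 0.454, edgeR adjusted p = 0.15). Fbln1, a fibulin that binds fibronectin and fibrillin, had 5.69 to 8.44 CPM in WT and 3.44 to 6.52 in Dp16 (-0.52, edgeR adjusted p = 0.157). Fn1, fibronectin, had 27.3, 60.5, 46.7 and 59.0 CPM in WT and 33.5, 28.0, 39.7 and 45.2 in Dp16. Its WT replicate 1 was below all Dp16 libraries, so the groups overlapped (-0.40, edgeR adjusted p = 0.325). Fbln2 (-0.22), the elastin gene Eln (-0.40), the fibrillin gene Fbn1 (-0.07), Fbln5, which helps to assemble elastic fibres (-0.05), and the microfibril gene Mfap5 (0.04) gave adjusted p-values by edgeR of 0.237, 0.342, 0.851, 0.889 and 0.95. Of the Fbn1 exon bases, 20.1% also belong to an annotated gene on the opposite strand, so its count is uncertain if strand was not used.

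Small leucine-rich proteoglycans coat collagen fibrils and control their growth. Dcn, decorin, was the most abundant of the 41 genes per length, at 41.4 ± 7.66 CPM per kb in WT and 42.1 ± 6.12 in Dp16. It had 194, 296, 219 and 258 CPM in WT and 194, 250, 272 and 268 in Dp16, with every Dp16 library inside the WT range (0.02, 95% confidence interval -0.32 to 0.37). Lum, lumican, lies 46985 bases from Dcn on chromosome 10 and had 23.1, 48.9, 39.7 and 45.6 CPM in WT and 18.8, 28.8, 10.9 and 42.0 in Dp16 (-0.65, SE 0.379, edgeR adjusted p = 0.314). Fmod, fibromodulin, had 1.88 to 5.42 CPM in WT and 0.418 to 3.24 in Dp16, lowest in Dp16 replicate 3 (-1.06, SE 0.525, edgeR adjusted p = 0.243). Bgn, biglycan, had 81.6 to 106 CPM in WT and 67.6 to 87.7 in Dp16 (-0.25, edgeR adjusted p = 0.197), and Ogn, osteoglycin, had -0.22 (edgeR adjusted p = 0.653). Of this group 4 of 5 were negative, 0 of 5 were called by edgeR, DESeq2 or limma-voom, and 1 had an unadjusted p below 0.05 by edgeR.

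Of 3 collagen-binding proteins of the matrix, 0 were called by any of the 3 tools and 0 had an unadjusted p below 0.05 by edgeR. Postn, periostin, had 145, 128, 138 and 141 CPM in WT and 151, 116, 103 and 147 in Dp16 (-0.09, 95% confidence interval -0.38 to 0.19). Sparc, a collagen chaperone outside the cell, had -0.20 (-0.49 to 0.09) and Dpt, dermatopontin, had -0.08 (-0.53 to 0.36). Their edgeR adjusted p-values were 0.673, 0.359 and 0.82.

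Among the enzymes of collagen maturation, Lox had the largest fold change of the 41 genes, and it rested on 1 library. By edgeR 0 of 3 enzyme genes were called and 2 had an unadjusted p below 0.05. Neither DESeq2 nor limma-voom called any. Lox encodes lysyl oxidase, which starts the cross-links of collagen and elastin. It had 6.28, 3.89, 3.35 and 6.11 CPM in WT and 5.38, 7.42, 55.0 and 6.13 in Dp16. Dp16 replicate 3 was 7.41 times the next highest library, and the other 3 Dp16 libraries lay near the WT range. The log2 fold change was 1.91 (SE 0.748, edgeR adjusted p = 0.165), and 0.36 without Dp16 replicate 3 (edgeR adjusted p = 0.441). DESeq2 gave no adjusted p for Lox. Its relative Loxl1, which acts on elastic fibres, had 7.09 to 10.2 CPM in WT and 5.85 to 9.51 in Dp16 (-0.26, edgeR adjusted p = 0.408), without a high value in Dp16 replicate 3. Pcolce, which speeds the trimming of fibrillar procollagens, had 11.2, 16.9, 17.5 and 15.5 CPM in WT and 8.11, 8.80, 9.04 and 15.4 in Dp16 (-0.56, SE 0.22, edgeR adjusted p = 0.165). As for Col6a3, 3 Dp16 libraries were low and Dp16 replicate 4 was inside the WT range.

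Markers of the matrix-producing cells had a median of 0.02, with 3 of 6 negative. By edgeR 0 of 6 were called and 2 had an unadjusted p below 0.05, DESeq2 called 1 and limma-voom 0. Pdgfra, a growth factor receptor of fibroblasts, had 89.4, 98.8, 92.6 and 78.9 CPM in WT and 81.8, 93.9, 95.4 and 99.3 in Dp16, with the smallest spread of the 41 genes in Dp16 (0.04, 95% confidence interval -0.17 to 0.25). Pdgfrb, the related receptor of pericytes and fibroblasts, had -0.01 (-0.35 to 0.34). Vim, a filament of mesenchymal and immune cells, had 34.3 to 46.5 CPM in WT and 36.3, 29.0, 70.9 and 36.9 in Dp16 (0.05, edgeR adjusted p = 0.928), and -0.30 without Dp16 replicate 3. Pi16, a marker of adventitial fibroblasts, had -0.44 (edgeR adjusted p = 0.398). Serpinf1, a collagen-binding serpin made by fibroblasts, had 22.04 to 29.8 CPM in WT and 15.8 to 24.4 in Dp16 (-0.41, SE 0.143, edgeR adjusted p = 0.139). In bulk RNA, fewer cells of a type and less RNA per cell cannot be told apart.

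Thy1, a surface protein of fibroblasts, T cells and neurons, was the one cell marker whose groups did not overlap. It had 1.96, 3.08, 3.05 and 2.57 CPM in WT and 4.78, 3.085, 5.93 and 5.43 in Dp16, a mean of 2.67 ± 0.525 against 4.81 ± 1.24 (SD, n = 4). Dp16 replicate 2 was level with the highest WT library at 3.082 CPM. The log2 fold change was 0.85 (SE 0.223, edgeR adjusted p = 0.0846), and it was called higher without Dp16 replicate 2 (1.01, edgeR adjusted p = 0.0371), where 2.26% of all genes were called in that fit. Lymphocyte markers had higher means in the same group: 8 of 8 were positive with a median of 1.93, and their summed level was 2.89 to 6.02 CPM in WT and 17.1, 6.43, 25.0 and 12.1 in Dp16 replicates 1 to 4. By edgeR 0 of the 8 were called, 8 had an unadjusted p below 0.05, DESeq2 called 8 and limma-voom 2. The part of lymphocytes in the Thy1 value was not tested.

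The libraries differed in how many of the 41 genes they held low. In Dp16 replicates 1 to 4, 26, 23, 20 and 4 of the 41 genes lay below the lowest WT library, and 2, 4, 9 and 7 lay above the highest. Dp16 replicate 4 thus sat mostly within the WT range, and among WT libraries replicate 1 had 33 of 41 genes below the WT mean. The summed CPM of the 5 fibrillar collagens was 322, 470, 439 and 477 in WT and 220, 230, 305 and 425 in Dp16. That of the 7 basement membrane genes was 530, 524, 499.9 and 550 in WT and 450.2, 508, 582 and 569 in Dp16. The spread within a group was larger in Dp16 for 36 of 41 genes, with a median coefficient of variation of 25.6% against 15.5% in WT, while over all genes tested it was 16.5% and 15.2%.

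Dp16 replicate 3 differed from the other Dp16 libraries in holding many of the highest values as well as many of the lowest. It held the highest value of all 8 libraries for 9 of the 41 genes, among them Lox, Col12a1 (30.0 against at most 18.4 CPM elsewhere), Mfap5 (10.4 against at most 6.57), Vim, Col4a1 and Col4a2. For another 11 it held the lowest, among them Fmod, Col15a1, Pi16, Lum, Col14a1 and Mfap4. The number of lowest values was similar in Dp16 replicates 1 and 2, with 10 each, and was 1 in Dp16 replicate 4. These 3 libraries held the highest value for 1, 2 and 3 genes, and WT replicates 1 to 4 for 0, 9, 9 and 8. Mfap4 was nearly as low in Dp16 replicate 2 (0.217 against 0.204 CPM). Macrophage markers summed to 396 CPM in Dp16 replicate 3 and to between 210 and 273 in the other 7 libraries, and lymphocyte markers were also highest in Dp16 replicate 3. The part of these cells in its matrix values was not tested.

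**Figure D4:**
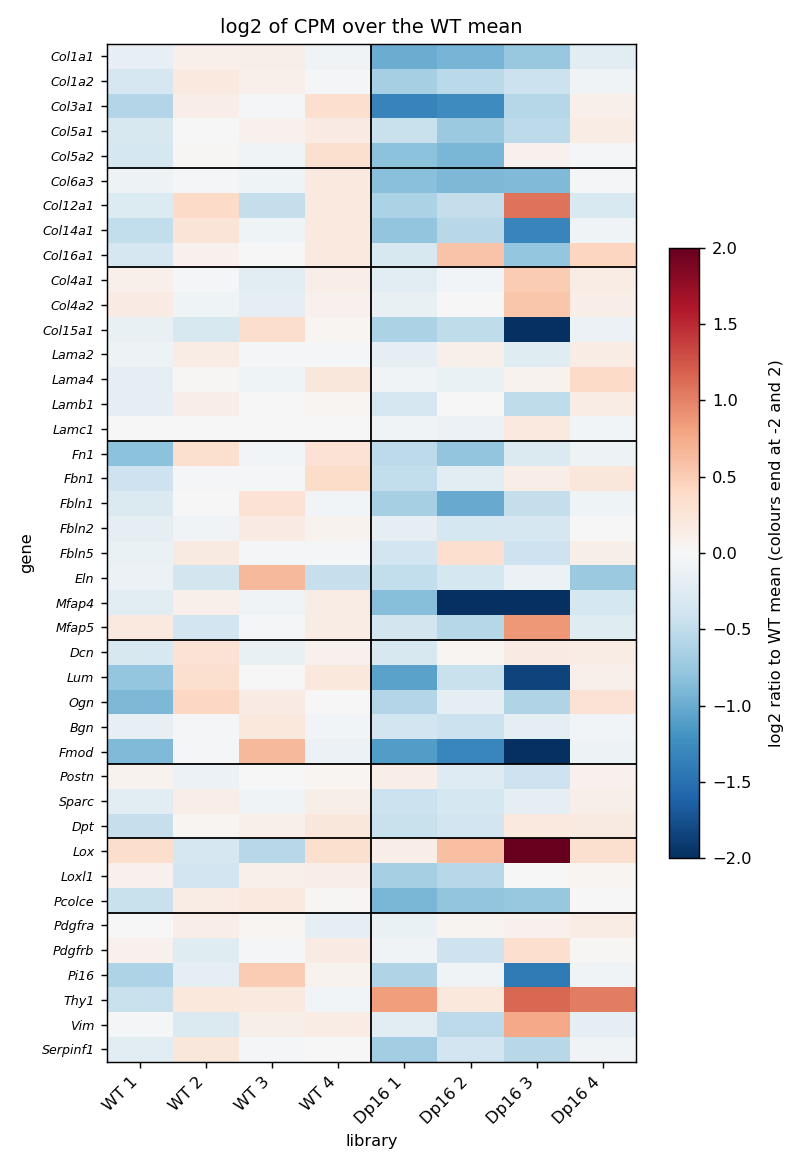
Log2 of CPM over the WT mean for the 41 genes (rows, by role, with black lines between groups) in the 8 libraries (columns), with blue below and red above the WT mean and colours ending at -2 and 2. Dp16 replicates 1 and 2 are mostly blue and Dp16 replicate 4 is close to WT. Dp16 replicate 3 mixes the strongest reds (Lox) with the strongest blues (Fmod, Mfap4, Col15a1), and Mfap4 is as blue in Dp16 replicate 2.

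Other genes of the same pathways were read from the same fit. Over all genes tested edgeR called 0.625%, and 24.6% had an unadjusted p below 0.05. DESeq2 called 10.2% and limma-voom 2.05% of all genes. Of 25 other collagen chains tested (of 32 listed), 0 were called by edgeR, 5 had an unadjusted p below 0.05 and the median was 0.09, while DESeq2 called 1 and limma-voom 0. Col7a1, the anchoring fibril collagen under epithelia, had the smallest p (0.65, SE 0.164, edgeR adjusted p = 0.0804). Of 20 other basement membrane genes 0 were called and 4 had an unadjusted p below 0.05, with a median of -0.004, while DESeq2 called 1 and limma-voom 0. Lama3, a laminin chain of epithelia, had 0.33, the perlecan gene Hspg2 had -0.25 and the agrin gene Agrn had 0.21, at adjusted p-values by edgeR of 0.071, 0.169 and 0.183.

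Of 29 enzymes and chaperones of collagen synthesis tested (of 30), 0 were called by edgeR, 5 had an unadjusted p below 0.05, all lower in Dp16, and the median was -0.08. Over all genes tested 24.6% had an unadjusted p below 0.05, with 11.9% lower in Dp16. The groups did not overlap in 2 of the 29, where 14.1% of all genes did not. Adamts2, which removes the N-terminal propeptide of fibrillar collagens, had 30.8 ± 4.37 CPM in WT and 19.2 ± 2.78 in Dp16 without overlap (-0.68, SE 0.129, edgeR adjusted p = 0.0538). DESeq2 and limma-voom called Adamts2 lower (DESeq2 adjusted p = 0.000334, limma-voom adjusted p = 0.0411). Plod3, a lysyl hydroxylase, had -0.35 and Serpinh1, the collagen chaperone of the endoplasmic reticulum, had -0.68, at adjusted p-values by edgeR of 0.0936 and 0.118. DESeq2 called 3 of the list lower and limma-voom 1, where they called 4.33% and 0.77% of all genes lower.

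In the next 3 lists 0 genes were called by edgeR with adjustment over all genes. For the 25 other elastic and adhesive matrix genes, 2 had an unadjusted p below 0.05 and the median was -0.01. The smallest p-values were those of Ltbp3 (0.22), Thbs2 (0.85) and Ltbp4 (-0.31), at adjusted p-values by edgeR of 0.118, 0.199 and 0.236. For the 18 genes of the TGF-β pathway, the main inducer of fibrillar collagen, 3 had an unadjusted p below 0.05 and the median was -0.01. Ccn1, a matricellular early response gene, had 19.9 ± 10.9 CPM in WT and 4.44 ± 1.59 in Dp16 without overlap (-2.16, SE 0.443, edgeR adjusted p = 0.0609), and Smad2 had -0.24 and Tgfbr3 0.30 (edgeR adjusted p = 0.0892 and 0.185). DESeq2 called Ccn1 and Smad2 lower. Of 13 receptors for collagen and laminin 0 had an unadjusted p below 0.05, with Itga10 (-0.53), Dag1 (-0.20) and Ddr1 (-0.19) lowest in p. DESeq2 called 0 in the elastic and the receptor lists, and limma-voom called 0 in these 3 lists.

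Markers of other cells in or around the gland were set beside the matrix values. A further 22 fibroblast markers tested (of 24) had a median of 0.09 with 0 called by edgeR, DESeq2 or limma-voom and 2 at an unadjusted p below 0.05 by edgeR, and their summed level was 613 to 699 CPM in WT and 643 to 892 in Dp16. Of these 22 genes 14 were positive and 8 negative, the lowest at -0.74. Those with the smallest p, Cxcl12, Scara5 and Dpp4, had 0.30, 0.45 and 0.24, at adjusted p-values by edgeR of 0.131, 0.167 and 0.215. Endothelial markers had a median of 0.40 over 8 genes with 7 positive, and edgeR called 0 with 4 at an unadjusted p below 0.05, DESeq2 1 and limma-voom 0. Their summed level was 49.7 to 60.7 CPM in WT and 61.8 to 72.4 in Dp16. Smooth muscle and pericyte markers had a median of 0.40 over 10 genes, of which 8 were positive and 2 negative. Their summed level overlapped between groups, at 370 to 465 CPM in WT and 404 to 485 in Dp16. By edgeR 0 were called and 4 had an unadjusted p below 0.05, 3 higher and 1 lower in Dp16. DESeq2 called 2 and limma-voom 1, and Rgs5 had 0.52 and Notch3 0.40 (edgeR adjusted p = 0.0648 and 0.0796). Schwann cell markers had 0.05 over 8 genes and macrophage markers 0.12 over 8 genes. By edgeR 0 were called in each. An unadjusted p below 0.05 was found for 3 Schwann cell markers, 1 higher and 2 lower in Dp16, and for 0 macrophage markers. The DESeq2 counts were 1 and 0, those of limma-voom 0 and 0.

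Fat markers were low throughout, summing to 22.1 to 33.3 CPM in WT and 23.1 to 38.5 in Dp16. Their median was -1.26 over 9 genes, of which 6 were negative and 3 positive. By edgeR, DESeq2 or limma-voom 0 were called, and 4 had an unadjusted p below 0.05 by edgeR. Adipoq had 0.336 ± 0.233 CPM in WT and 0.087 ± 0.0749 in Dp16. The mean log2 difference of the 9 genes from the WT mean was 0.83, -1.01, 0.23 and -0.05 in WT replicates 1 to 4. In Dp16 replicates 1 to 4 it was -1.06, -0.06, -1.43 and -0.83, so the groups overlapped. Skeletal muscle markers summed to at most 1.94 CPM, with Pvalb at 0 reads in all libraries and 4 of 8 passing the filter. Of those 4, edgeR called 0 with 1 at an unadjusted p below 0.05, DESeq2 called 1 lower and limma-voom 0. Acinar markers had a median of -0.45 over 8 genes, with 0 called by edgeR, 3 at an unadjusted p below 0.05, 3 called by DESeq2 and 0 by limma-voom. Granular duct markers had -0.55 over 8, with 1 called lower by edgeR (Klk1, -0.70, edgeR adjusted p = 0.0358) and 2 at an unadjusted p below 0.05. DESeq2 called 2 of them lower and limma-voom 1. Duct and basal markers had 0.07 over 8, with 0 called by any of the 3 tools and 0 at an unadjusted p below 0.05 by edgeR. The part of any of these cell types in the matrix values was not tested.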

How the data were processed

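Whole-number read counts per gene were deposited by the authors, 1 table per library. Per the submitters' processing notes, FastQC, STAR, HTSeq and DESeq2 were used with GRCm38, and no version is listed. No source used here gives the annotation release or says whether counting used strand. Per the labels' protocols, libraries were stranded total RNA with ribosomal RNA depletion. Each table has 54838 genes and 5 rows naming no gene, which held 58.1% to 65.4% of the reads and were left out.

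Symbols, exons and coordinates came from GENCODE M21 (GRCm38), to which 54809 genes matched. Counts were fitted in R 4.3.3 with edgeR 4.0.16 (default expression filter, TMM, glmQLFit and glmQLFTest, no covariate), two-sided, adjusted over 19358 genes. DESeq2 1.42.0 and limma 3.58.1 (voom with quality weights) were alternatives, as were other scalings and filters, an adjusted p below 0.10, a replicate block and omission of each library. The fits were tested on simulated data. Ratios used exact permutation over all splits of 8 libraries. Depth ranged from 90790542 to 115729892 reads in genes, and the member with the fewest reads, Mfap4, had 22 in a library. Merged exons can include rare transcripts, so levels per kb depend on the annotation.

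The 41 genes, the lists and the tests were chosen with earlier results of these data known. The text names all 41, up to 3 genes of each other list by smallest p, and Col6a1, Col6a2 and Col18a1.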

Additional observations from a re-analysis of the deposited data

Results flagged for a closer look

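In 6 of 82 groups of 4 libraries (each of the 41 genes in each genotype), 1 library lay far from the other 3, with a gap to its nearest neighbour, as a share of the whole range, above the 95% critical value of Dixon's test. Chance marks about 1 group in 20, and of all 148 groups screened, these 82 included, the same 6 were marked. Lox in Dp16 had a gap of 0.959 of the range, with 55.0 CPM in Dp16 replicate 3 and 7.42 in the next library. In the same library Col12a1 stood above the other Dp16 values (gap 0.886, 30.0 against 11.4 CPM), as did Mfap5 (gap 0.851, 10.4 against 4.84 CPM). Col6a3 in Dp16 had a gap of 0.939, with 95.3 CPM in Dp16 replicate 4 and 54.5 in the next. Pcolce in Dp16 had a gap of 0.872, with 15.4 CPM in Dp16 replicate 4 and 9.04 in the next. Loxl1 in WT had a gap of 0.877, with 7.09 CPM in WT replicate 2 and 9.83 in the next. Thus 5 of the 6 values came from Dp16 replicates 3 and 4.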

How the results depend on the processing

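The count of the 41 genes called, 0 by edgeR, was 4 by DESeq2 (Col1a1, Col6a3, Mfap4, Thy1), 1 by limma-voom (Col1a1), 2 at an adjusted p below 0.10 (Col1a1, Thy1), and 0 to 2 when 1 library was left out, with 2 without Dp16 replicate 4 and 1 without Dp16 replicate 2. It was 0 under the other scalings and filters. Over all genes the count of 121 was 1991 by DESeq2, 396 by limma-voom, 223 with no filter, 1308 at an adjusted p below 0.10 and 0 to 446 when 1 library was left out (0 without WT replicate 2 or Dp16 replicate 1, 446 without Dp16 replicate 2). With the replicate block edgeR called 776 of all genes and 2 of the 41 (Col1a1 and Col6a3, both lower), and no ratio changed its call. Deviations of same-numbered libraries correlated at 0.0777 to 0.191, and those of differently numbered libraries at -0.225 to 0.141. Those of the same number were not all above 0.1, the threshold set here, and the block is not taken as a pairing. The sign test over 4 pairs cannot go below 0.125. No scaling moved the median of all genes by more than 0.1. As these scalings centre most genes near 0 by design, this does not test the scaling.

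Fold changes of single genes kept sign and side of the threshold in 554 of 614 refits, passed the threshold in 10 and changed sign in 50, over 16 genes, none of which was called. By limma-voom the sign turned for Col12a1 (-0.28), Col16a1 (-0.077), Col4a1 (-0.0023), Mfap5 (-0.18), Dcn (-0.084), Pdgfra (-0.010) and Vim (-0.11). With the replicate block it turned for Col12a1 (-0.070), Col16a1 (-0.0089), Mfap5 (-0.066) and Vim (-0.033). Without the 1% most abundant genes in TMM it turned for Lamc1 (0.0012) and Pdgfrb (0.0040), and with CPM of at least 1 in 4 libraries for Lamc1 (0.023) and Pdgfrb (0.026). Leaving out 1 library at a time gave these ranges of the log2 fold change: Col12a1 -0.47 to 0.29, Col16a1 -0.14 to 0.27, Col4a1 -0.037 to 0.22, Col4a2 -0.0032 to 0.24, Lama2 -0.11 to 0.027, Lama4 -0.054 to 0.16, Lamc1 -0.079 to 0.027, Fbn1 -0.19 to 0.076, Fbln5 -0.20 to 0.056, Mfap5 -0.39 to 0.20, Dcn -0.077 to 0.13, Postn -0.18 to 0.0027, Dpt -0.22 to 0.021, Pdgfra -0.017 to 0.096, Pdgfrb -0.14 to 0.11 and Vim -0.30 to 0.19. The ratio difference ranged from -0.13 to 0.14 for Col3a1 to Col1a1 and from -0.28 to 0.020 for Lamb1 to Lamc1. The median of the cell markers ranged from -0.18 (without Dp16 replicate 3) to 0.070. Medians of the other 7 groups of genes moved by less than the spread between replicates in every setting run. The cause of these shifts was not tested. Of the 41 confidence intervals, 29 lay inside a log2 change of 1 either way, which bounds those changes at this number of libraries and does not show that the groups are alike.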

Other observations

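Dp16 replicate 3, where Lox was high, had 27 protein-coding genes at 4 or more times the highest of the other 7 libraries, a list chosen after its values were seen. The highest were Slfn4 (7.58-fold, 3.95 CPM), the neutrophil and gland protein gene Ltf (7.57-fold, 7.12 CPM) and Lox itself (7.41-fold, 55.0 CPM). Several are known as interferon-induced genes, such as Mx1 (5.57-fold), Ifi44 (5.06-fold) and Cxcl10 (5.68-fold). Others are secreted proteins of injured or inflamed tissue, such as Clu (225 against at most 40.05 CPM elsewhere), Lrg1 (16.4 against 3.26 CPM) and Serpina3n (37.9 against 8.66 CPM). The same threshold gave 0, 0, 4 and 0 genes in WT replicates 1 to 4 and 0, 2 and 1 in Dp16 replicates 1, 2 and 4. With 1 library there is no test of this pattern.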
